A study of Mus musculus with 4 samples.

Results

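The homologous recombination and Fanconi repair genes were 37 mouse genes chosen by symbol, with no measured value used in the choice. Each symbol was matched to an Ensembl gene ID in a deposited table of FPKM (fragments of a gene scaled to its exon length and to the size of the library), and all 37 were found among its 23552 genes. RNA-Seq had been performed on c-Kit+ leukemic cells enriched from the bone marrow of moribund C57BL/6 mice with MLL-AF9 AML. The control group held 2 libraries (replicates 3 and 4, control-eGFP overexpression), and the SUV-OE group held 2 libraries (replicates 2 and 3, Suv39h1-eGFP overexpression), all from RNA-seq batch 2. The MLL-AF9 fusion, the virally delivered eGFP and the transplantation were common to both groups. According to the study's methods, eGFP+ cells had been sorted after infection and given to sublethally irradiated recipients, and the cells profiled were P1 cells. As background, sublethal irradiation generally leaves recipient marrow cells alive, and their share in these samples was not tested. Neither the labels nor the methods tie each library to a separate mouse, so the p-values below measure the spread between these samples only.

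Homologous recombination repairs a DNA double-strand break by copying the intact sister chromatid, and it acts mainly in cells that are replicating their DNA. The broken end is recognised and trimmed to a single strand, BRCA1 and BRCA2 with their partners prepare it for strand exchange, and helicases and nucleases resolve the joined molecules. The Fanconi pathway unhooks crosslinks between DNA strands: a core complex attaches ubiquitin to FANCD2 and FANCI, after which the break is passed to recombination. Loss of either pathway damages hematopoietic stem cells, and Fanconi anemia is an inherited marrow failure that often progresses to AML.

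Suv39h1, the H3K9 methyltransferase that was overexpressed, was measured at 12.4 and 12.4 FPKM in control and at 75.3 and 81.2 FPKM in SUV-OE, so the libraries matched their labels. Its log2 fold change (SUV-OE minus control, on the log2(FPKM + 1) scale) was 2.56, with a standard error (SE) of 0.11 and a limma adjusted p of 0.00866 (Benjamini-Hochberg). Over 13736 tested genes, 112 DEGs were higher and 56 were lower in SUV-OE, where a DEG had an adjusted p under 0.05 and a log2 fold change of at least 1 in size. Scaled to the total of recovered reads, the same test gave 194 higher and 55 lower DEGs. Leaving out any of the 4 libraries left 0 DEGs by limma, with 1146 to 3895 genes at an unadjusted p under 0.05. Reads recovered from the FPKM steps numbered 23296566 and 20960903 in the control libraries and 19855274 and 20662763 in the SUV-OE libraries. By the read total that the FPKM were divided by, 16873769 to 19453057 in a library, 3 reads on 1 kb of exons were worth 0.154 to 0.178 FPKM. The 37 repair genes had 138 to 7298 reads per library, which bounds counting error only.

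None of the 37 repair genes was a DEG, and none reached an adjusted p under 0.05 at any fold, yet most of them sat slightly lower in SUV-OE. Of all tested genes, 1.22% were DEGs (0.408% lower, 0.815% higher), against 0 of the repair genes in either direction, and 1.29% had an adjusted p under 0.05 at any fold. At an unadjusted p under 0.05, limma gave 6 repair genes as lower (16.2%, against 10.4% of all tested genes) and 0 as higher (against 10.3%). In either direction the count was 6 on the deposited FPKM, against 2842 of the 13736 tested genes. It was 3 under scaling to total recovered reads (against 2670) and 4 under quantile normalization (against 2643). Median-of-ratios scaling and the fit without the trend gave 4 each (against 2787 and 2785). Repair genes are not counted at this threshold in fits that leave out a library, because 1 library then stands for a group. With limma-voom on the recovered reads, 0 repair genes were DEGs (against 4.75% of the genes tested there), 6 had an unadjusted p under 0.05 and were lower (against 11.0%), and the smallest adjusted p among the repair genes was 0.0628. By limma on the FPKM the smallest adjusted p was 0.139. With 2 libraries against 2, an exact permutation test of a single gene cannot give a two-sided p below 0.333.

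Of the 37 genes, 32 had a log2 fold change below 0 (86.5%, against 53.0% of all tested genes), a number that dropped to 23 under scaling to total recovered reads, where 42.8% of all tested genes were below 0. Both SUV-OE values lay under both control values for 17 repair genes (45.9%), where 28.4% of all tested genes did so. The opposite order, both SUV-OE libraries above both controls, was seen for 1 repair gene, Rad52 (2.70%, against 25.4% of all tested genes). Under scaling to total recovered reads, 13 repair genes lay below without overlap (against 19.8% of all tested genes). Above without overlap lay 3, and the share of all tested genes above was not computed for this scaling. With SUV-OE replicate 2 left out, 27 lay below, where 36.8% of all tested genes did. The median log2 fold change was -0.12 over the 37 genes and -0.02 over all tested genes. Among the 8774 tested genes with a mean FPKM in the range of the repair genes (1.60 to 29.2), the median was also -0.02, and 28.4% lay below without overlap.

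**Figure D1:**
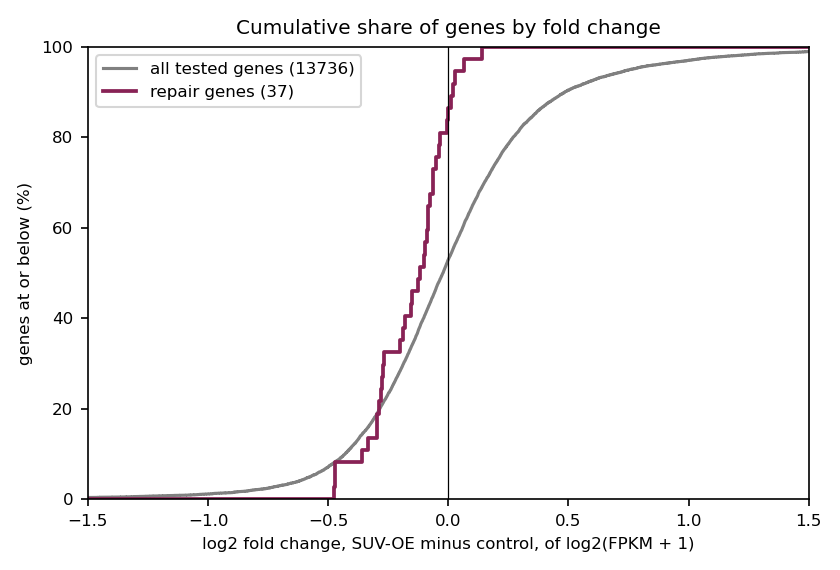
Cumulative share of genes (y axis, percent) at or below each log2 fold change (x axis, SUV-OE minus control, of log2(FPKM + 1)) for the 37 repair genes and for the 13736 tested genes. The repair genes lay between -0.48 and 0.14, and their line crossed 0 at 86.5% while that of all tested genes crossed at 53.0%; the curve of all tested genes runs past both ends of the axis.

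The cumulative plot shows a narrow distribution placed to the left of 0, without the long tails seen over all genes. The sets differ in the number and level of their genes, and their spread was not compared. The SE of the log2 fold change by limma was 0.11 to 0.22 (median 0.13), larger than the part due to read counting, which was 0.02 to 0.11. In bulk RNA, fewer cells of one kind and less RNA per cell cannot be told apart, and this holds for every value here.

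As a group, the repair genes summed to 317.7 and 312.9 FPKM in control replicates 3 and 4 and to 274.6 and 272.5 FPKM in SUV-OE replicates 2 and 3. The groups did not overlap in this sum. As a share of all FPKM in a library, the same genes made up 0.0891% and 0.0754% in control against 0.0805% and 0.0730% in SUV-OE, and here the groups overlapped. Control replicate 3 held the highest value of a gene for 16 of the 37 genes and control replicate 4 for 13, whereas SUV-OE replicate 3 held the lowest value for 19 and SUV-OE replicate 2 for 11. Their mean levels were at the 20.5th to 84.4th percentile of the tested genes, with a median at the 48.4th.

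**Figure D2:**
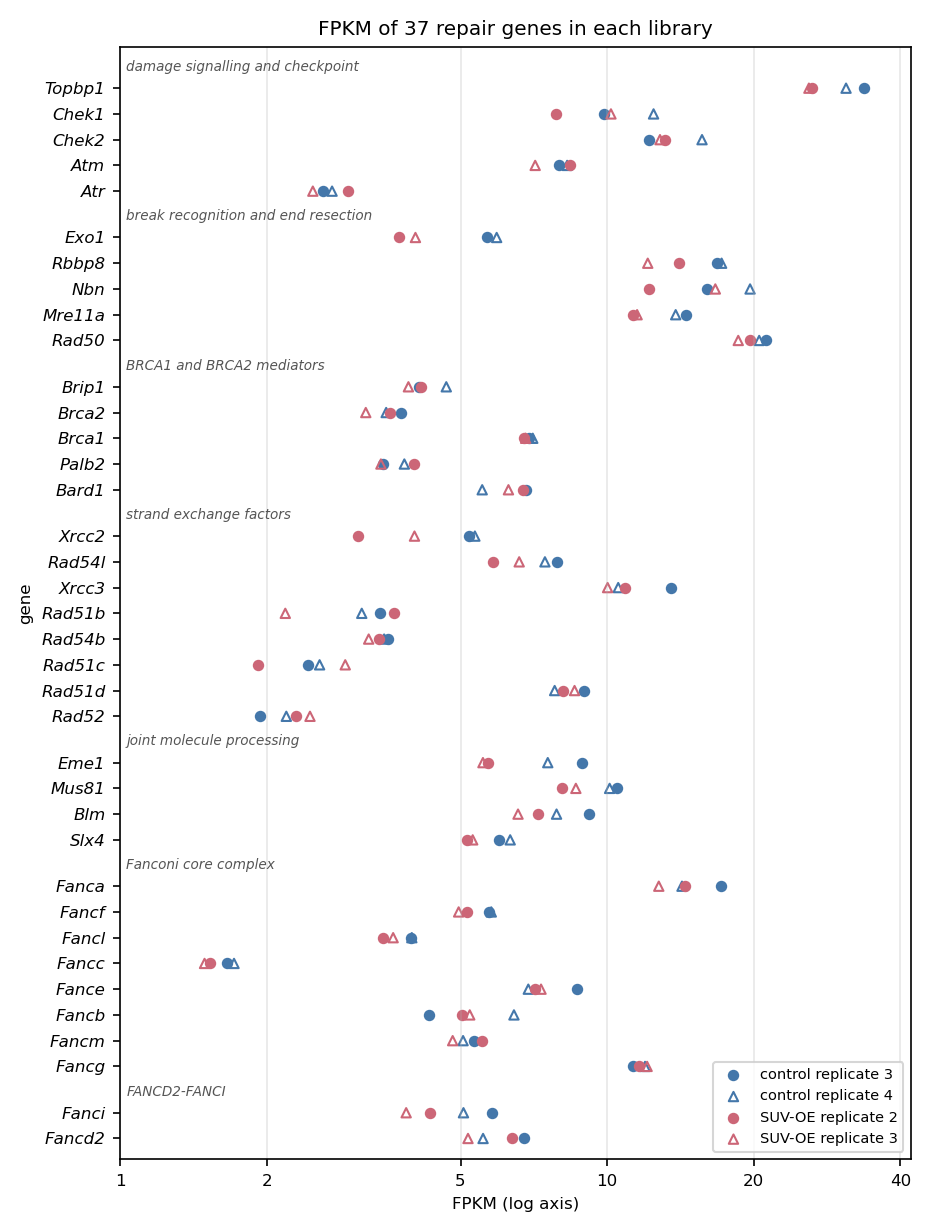
FPKM (x axis, log scale) of the 37 repair genes (y axis, grouped by role) in the 2 control libraries (blue) and the 2 SUV-OE libraries (red), 1 point for each library. Topbp1 had the highest levels (26.0 to 33.7 FPKM) and Fancc the lowest (1.49 to 1.71 FPKM); the 4 genes that process joint molecules have both red points to the left of both blue points.

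The genes that open the repair reaction had a median log2 fold change of -0.30 over 5 genes. All 5 had a log2 fold change below 0 (against 53.0% of all tested genes), and 4 of them lay below without overlap (against 28.4%). Exo1 (ENSMUSG00000039748, mm10 chr1:175880581-175913489, plus strand), the exonuclease of long-range end resection, had 5.66 and 5.93 FPKM in control and 3.73 and 4.04 FPKM in SUV-OE. Both SUV-OE libraries were well below both controls, and the libraries of each group lay close together. The log2 fold change of Exo1 was -0.48 (SE 0.12, 95% interval -0.79 to -0.17), with a limma adjusted p of 0.139. The estimate rested on 928 and 843 reads in control and 558 and 605 reads in SUV-OE.

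Rbbp8 encodes CtIP, which starts resection together with the MRN complex. It measured 16.8 and 17.2 FPKM in control and 14.0 and 12.1 FPKM in SUV-OE, again without overlap, for a log2 fold change of -0.36 (SE 0.12, limma adjusted p = 0.205). The MRN complex itself, made of the nuclease Mre11a, the ATPase Rad50 and the adaptor Nbn, was not uniform. Mre11a had 14.5 and 13.8 FPKM in control and 11.3 and 11.5 FPKM in SUV-OE, with a log2 fold change of -0.29 (SE 0.11, limma adjusted p = 0.228) and no overlap. Nbn had 16.1 and 19.7 FPKM in control and 12.2 and 16.7 FPKM in SUV-OE, so that its groups overlapped despite a log2 fold change of -0.30 (SE 0.19, limma adjusted p = 0.441). That value was -0.086 without SUV-OE replicate 2, -0.51 without SUV-OE replicate 3 and -0.16 without control replicate 4. Rad50 had 21.2 and 20.5 FPKM in control and 19.6 and 18.6 FPKM in SUV-OE, a small difference (log2 fold change -0.12, SE 0.11) without overlap, which was -0.027 under scaling to total recovered reads and -0.022 under quantile normalization.

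The nucleases and helicases that take apart joined DNA molecules formed the one group of several genes in which no member overlapped between groups (28.4% of all tested genes lay below without overlap), with a median log2 fold change of -0.27 over 4 genes. Eme1 (ENSMUSG00000039055, mm10 chr11:94644996-94653964, minus strand) encodes the partner of the MUS81 nuclease. It had 8.86 and 7.55 FPKM in control and 5.69 and 5.56 FPKM in SUV-OE, for a log2 fold change of -0.47 (SE 0.13, 95% interval -0.80 to -0.14, limma adjusted p = 0.154). Mus81, the catalytic subunit of that enzyme, had 10.5 and 10.1 FPKM in control and 8.07 and 8.63 FPKM in SUV-OE, with a log2 fold change of -0.27 (SE 0.11, limma adjusted p = 0.257). Both genes of the MUS81-EME1 nuclease were thus lower in each SUV-OE library than in each control library, though neither passed the adjusted test.

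Blm, the RecQ helicase mutated in Bloom syndrome, had 9.19 and 7.87 FPKM in control and 7.22 and 6.56 FPKM in SUV-OE, for a log2 fold change of -0.27 (SE 0.13, limma adjusted p = 0.325). The scaffold gene Slx4, which holds MUS81-EME1 and other nucleases at crosslinks, had 5.99 and 6.32 FPKM in control and 5.17 and 5.30 FPKM in SUV-OE. This gave a log2 fold change of -0.20 (SE 0.11, limma adjusted p = 0.390), or -0.12 under scaling to total recovered reads. In Blm the 2 control libraries lay further apart than the nearest control and SUV-OE libraries, whereas in Slx4 they lay closer together. Without control replicate 3, the log2 fold change of Blm was -0.17.

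The 8 genes of the strand exchange factors, which help the resected end invade and pair with its template, had log2 fold changes from -0.47 to 0.14 and a median of -0.11. Xrcc2 (ENSMUSG00000028933, mm10 chr5:25689812-25705825, minus strand), which acts in strand exchange, had 5.20 and 5.35 FPKM in control and 3.08 and 4.02 FPKM in SUV-OE. The control libraries were nearly equal and both SUV-OE libraries lay below them, with SUV-OE replicate 2 lowest. Xrcc2 had a log2 fold change of -0.47 (SE 0.15, 95% interval -0.87 to -0.08, limma adjusted p = 0.190), which was -0.32 without SUV-OE replicate 2.

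Rad54l, the motor protein that drives strand invasion, had 7.89 and 7.45 FPKM in control and 5.82 and 6.60 FPKM in SUV-OE, without overlap. Its log2 fold change was -0.27 (SE 0.12, limma adjusted p = 0.301). The related Rad54b also did not overlap, but its log2 fold change was only -0.07. The remaining strand exchange genes below 0 overlapped between groups: the log2 fold change was -0.18 for Xrcc3, -0.15 for Rad51b, -0.05 for Rad51c and -0.00298 for Rad51d. For Xrcc3 it was -0.013 without control replicate 3 and -0.34 without control replicate 4. In Rad51b the value came from 1 library, since SUV-OE replicate 3 had 2.18 FPKM while the other 3 libraries had 3.13 to 3.65 FPKM, and without that library the log2 fold change was 0.12. Rad51c had 2.43 and 2.57 FPKM in control, and SUV-OE held both its lowest and its highest value, 1.92 and 2.90 FPKM.

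Rad52, an annealing protein that acts as a backup to BRCA2 in mammals, was the single gene that was higher in both SUV-OE libraries. It had 1.94 and 2.19 FPKM in control and 2.30 and 2.45 FPKM in SUV-OE, with a log2 fold change of 0.14 (SE 0.14, limma adjusted p = 0.604).

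BRCA1, BRCA2 and their partners, which act on the resected end, had a median log2 fold change of -0.04 over 5 genes. Brca1 (mm10 chr11:101488764-101551955, minus strand), a ubiquitin ligase subunit that promotes resection, had 6.91 and 7.04 FPKM in control and 6.75 and 6.80 FPKM in SUV-OE. The groups did not overlap, yet the 4 values were almost equal. The log2 fold change of Brca1 was -0.04 (95% interval -0.32 to 0.25), and it turned to 0.05 under scaling to total recovered reads. Brca2 (mm10 chr5:150522630-150570329, plus strand), a mediator of strand exchange, had 3.78 and 3.52 FPKM in control and 3.58 and 3.20 FPKM in SUV-OE, with overlap. Its log2 fold change was -0.08 (95% interval -0.42 to 0.25), and -0.17 under quantile normalization. The other 3 were Brip1, a helicase that binds BRCA1, Palb2, which bridges BRCA1 and BRCA2, and Bard1, the obligate partner of BRCA1, and all of them overlapped between groups. Their log2 fold changes were -0.10 for Brip1, 0.02 for Palb2 and 0.07 for Bard1. The intervals of Brca1 and Brca2 reached down to -0.32 and -0.42, so equal expression was not shown.

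The damage kinases and their activator are listed with the repair genes because they call and time the repair. Topbp1, which activates ATR at stalled forks, had the highest level of the 37 genes, with 33.7 and 30.9 FPKM in control and 26.3 and 26.0 FPKM in SUV-OE. The groups did not overlap, and the log2 fold change was -0.30 (SE 0.11, 95% interval -0.59 to -0.00334, limma adjusted p = 0.238), or -0.18 under quantile normalization. Chek1, the checkpoint kinase downstream of ATR, had 9.86 and 12.5 FPKM in control and 7.87 and 10.2 FPKM in SUV-OE. Its groups overlapped, since SUV-OE replicate 3 was above control replicate 3, and the log2 fold change was -0.28 (SE 0.18, limma adjusted p = 0.440). Without SUV-OE replicate 2 it was -0.11, without control replicate 4 it was -0.13, and without SUV-OE replicate 3 it was -0.45.

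Among the kinase genes themselves, Atm, Atr and Chek2 had log2 fold changes near 0. Atm, the kinase of double-strand breaks, had 7.96 and 8.28 FPKM in control and 8.38 and 7.12 FPKM in SUV-OE, for a log2 fold change of -0.06 (95% interval -0.40 to 0.27). Atr, the kinase of stalled forks, had 2.61 and 2.72 FPKM in control and 2.93 and 2.49 FPKM in SUV-OE, for a log2 fold change of 0.01 (95% interval -0.35 to 0.37). In both, the lowest and the highest library belonged to SUV-OE. Chek2, the kinase activated by ATM, had 12.2 and 15.7 FPKM in control and 13.2 and 12.8 FPKM in SUV-OE, for a log2 fold change of -0.08.

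**Figure D3:**
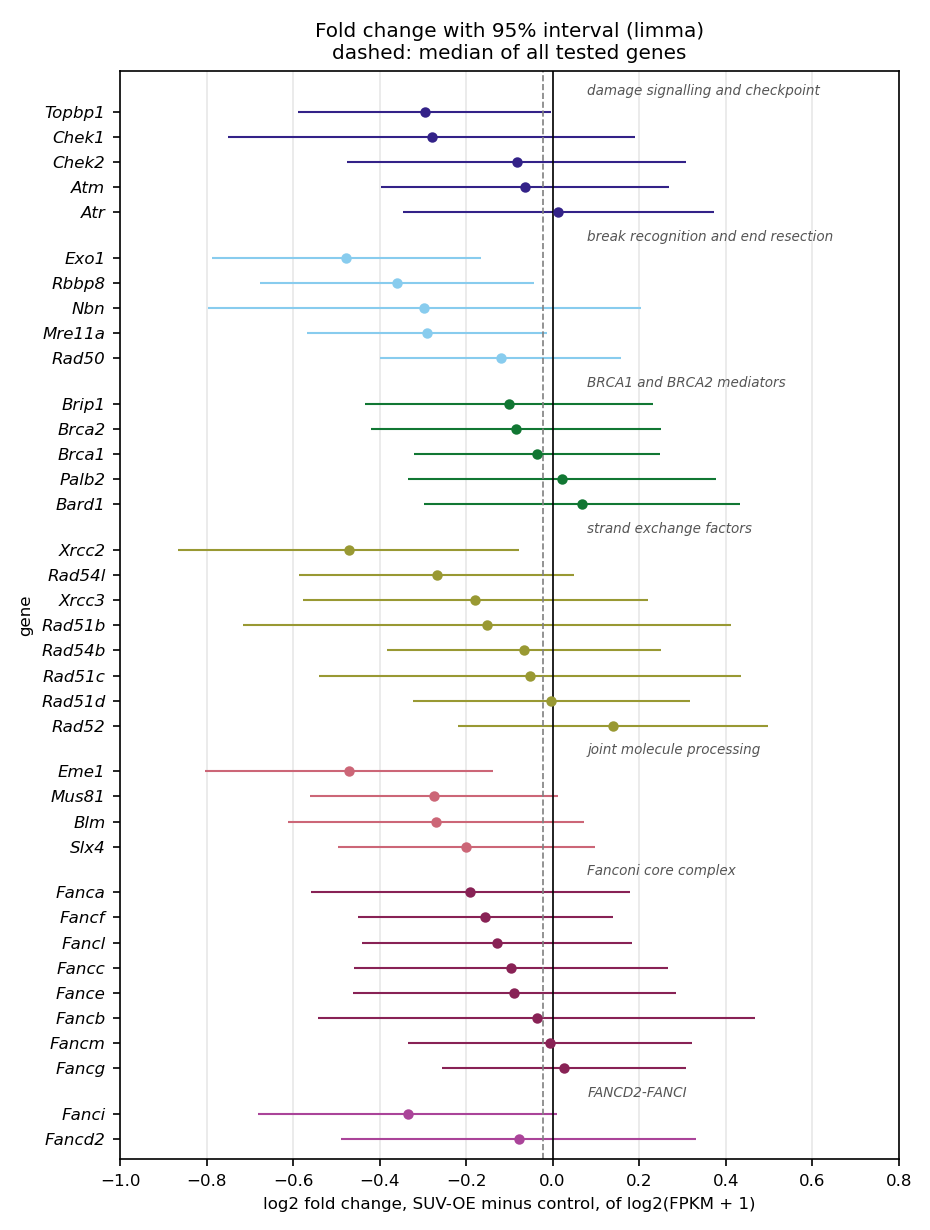
Log2 fold change (x axis, SUV-OE minus control, of log2(FPKM + 1)) of each repair gene (y axis, grouped by role) with its 95% interval from limma; the solid line is 0 and the dashed line is the median of all tested genes, -0.02. The intervals of Exo1, Eme1, Xrcc2, Rbbp8, Mre11a and Topbp1 end below 0 before adjustment for 13736 tests, and those of the BRCA1 and BRCA2 genes are centred close to 0.

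In the plot of fold changes, the 6 genes whose unadjusted interval lay below 0 came from 4 of the 7 roles, namely damage signalling, end resection, strand exchange and joint molecule processing. By limma-voom the 6 genes were Exo1, Xrcc2, Eme1, Rbbp8, Mre11a and Fanci, so that Fanci took the place of Topbp1.

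The Fanconi core complex, which places ubiquitin on FANCD2 and FANCI, had a median log2 fold change of -0.09 over 8 genes, of which 7 were below 0 (against 53.0% of all tested genes) and 3 lay below without overlap (37.5%, against 28.4%). Fanca, a subunit of the complex and the gene most often mutated in Fanconi anemia, had 17.1 and 14.2 FPKM in control and 14.4 and 12.8 FPKM in SUV-OE, with overlap. Its log2 fold change was -0.19 (SE 0.14, limma adjusted p = 0.498), which was -0.065 without control replicate 3, -0.11 without SUV-OE replicate 3, -0.32 without control replicate 4 and -0.10 under scaling to total recovered reads. Fancm, the translocase that anchors the complex to DNA, had 5.32 and 5.06 FPKM in control and 5.52 and 4.82 FPKM in SUV-OE. Here SUV-OE held both the highest and the lowest value, and the log2 fold change was -0.01. The 3 genes without overlap had small differences, with a log2 fold change of -0.16 for Fancf, -0.13 for Fancl, the ubiquitin ligase, and -0.10 for Fancc. The other log2 fold changes were -0.09 for Fance, -0.04 for the X-linked Fancb and 0.03 for Fancg.

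The substrates of the core complex had unlike values. Fanci had 5.80 and 5.07 FPKM in control and 4.33 and 3.87 FPKM in SUV-OE, without overlap, for a log2 fold change of -0.34 (SE 0.13, 95% interval -0.68 to 0.01, limma adjusted p = 0.252). Fancd2 had 6.74 and 5.56 FPKM in control and 6.37 and 5.18 FPKM in SUV-OE, and the spread within each group was larger than the gap between groups. Its log2 fold change was -0.08 (95% interval -0.49 to 0.33). The proteins work as a pair, but the difference between the fold changes of the genes was not tested.

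Several of these levels carry reads that could belong to a neighbour. More than 10% of exon bases overlapped another GENCODE M21 gene in 8 repair genes: Rad54b (35.9%), Fancc (18.6%), Fanci (16.0%, with Polg), Rad54l (15.4%, with Lrrc41), Fancf (15.0%, with Gas2), Fancl (13.7%, with Vrk2), Eme1 (10.7%, with Lrrc59 and Mrpl27) and Fanca (10.5%, with Zfp276). The sources used here do not state that counting used strand, so the values of these 8 genes are uncertain to that extent. Rad54b overlaps Fsbp on its own strand, where a strand setting would not separate the reads. For the others the overlapping genes lie on the opposite strand. Exo1, Xrcc2 and Topbp1 had no such overlap.

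Because many repair genes are transcribed with the cell cycle, their promoters were searched for letters of the E2F element (TTTGGCGC, TTTCCCGC, TTTGCCGC and TTTCGCGC) and of the CHR element (TTTGAA and TTCGAA), on both strands. RefSeq windows (build GRCm38.p6, 250 bases before to 50 bases after the start) were found for 29 of the 37 genes. E2F letters stood in the windows of 6 of them (20.7%), against 450 of 9191 tested genes (4.90%) and 704 of 27025 genes in all. The CHR letters stood in 4 of the 29 (13.8%), against 16.5% of tested genes. Those 4 were Atr, Bard1, Rad51b and Eme1, with log2 fold changes of 0.01, 0.07, -0.15 and -0.47, and the median was -0.07 with the CHR letters and -0.10 without. The E2F matches are printed, with the matched letters in capitals, because these genes can be set against those without a match. Rad51c had a match in each of its annotated windows, and each sequence is given 5′ to 3′ on the strand of its gene.
Topbp1 (chr9:103305187-103305216, plus strand): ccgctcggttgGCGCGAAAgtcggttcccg
Brca2 (chr5:150522442-150522471, plus strand): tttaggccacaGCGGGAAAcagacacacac
Bard1 (chr1:71103163-71103192, minus strand): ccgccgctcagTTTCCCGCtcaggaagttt
Chek2 (chr5:110839820-110839849, plus strand): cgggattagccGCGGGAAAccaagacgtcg
Fancg (chr4:43010335-43010364, minus strand): tttcttttcagTTTCCCGCggaaccgtctc
Rad51c (chr11:87404477-87404506, minus strand): gtttccagcgcTTTCGCGCctcttgctcta
Rad51c (chr11:87404941-87404970, minus strand): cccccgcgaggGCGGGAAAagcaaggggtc

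The matched letters began 129 bases before the RefSeq start in Topbp1, 168 in Brca2, 209 in Bard1, 152 in Chek2 and 52 in Fancg. In Rad51c they began 5 bases before one annotated start and at base 12 of the other. Topbp1, with a log2 fold change of -0.30, was the single gene with E2F letters whose groups did not overlap in the lower direction. The median log2 fold change was -0.07 for the 6 genes with E2F letters and -0.15 for the 23 without, and 11 of those 23 lay below without overlap (28.4% of all tested genes did). The 8 genes without a window (Exo1, Xrcc2, Rbbp8, Nbn, Rad50, Fancd2, Rad54b and Rad51d) are left out of this comparison, and Exo1, Xrcc2, Rbbp8 and Nbn had log2 fold changes of -0.48, -0.47, -0.36 and -0.30. Eme1 and Fanci, which were among the lowest, held no E2F letters in this window. A match describes the letters only, and binding was not measured here.

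Genes outside the 37 that act in the same pathways had a median on the same side of 0. Of 59 tested genes for other recombination, Fanconi and checkpoint factors, 43 had a log2 fold change below 0 and 16 above, with a median of -0.16. Both SUV-OE libraries lay below both controls for 27 (45.8%, against 28.4% of all tested genes) and above for 7 (against 25.4%). No gene of that list had an adjusted p under 0.05, while 12 were lower and 1 was higher at an unadjusted p under 0.05 by limma (against 10.4% and 10.3% of all tested genes). The 3 largest differences without overlap were in Faap24, a partner of FANCM, Zswim7, a subunit of the Shu complex, and Tipin, a replication fork protector. Faap24 had 19.4 and 13.4 FPKM in control and 10.3 and 8.38 FPKM in SUV-OE (log2 fold change -0.74, limma adjusted p = 0.165). Zswim7 had 12.4 and 13.3 FPKM in control and 6.47 and 8.84 FPKM in SUV-OE (log2 fold change -0.69, limma adjusted p = 0.134). Tipin had 116 and 138 FPKM in control and 79.7 and 87.3 FPKM in SUV-OE (log2 fold change -0.59, limma adjusted p = 0.144). All 3 were further from 0 than any of the 37 repair genes.

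Other DNA repair routes were set beside these genes. For non-homologous end joining, the alternative route for double-strand breaks, 6 of 13 tested genes were below 0 and 7 above, with a median log2 fold change of 0.03. Nucleotide excision repair genes had a median of -0.17 over 19 genes, with 10 below without overlap (52.6%, against 28.4% of all tested genes), and base excision repair genes had a median of -0.08 over 19 genes, with 5 below (26.3%). Mismatch repair genes had a median of -0.13 over 7 genes, with 4 below. Apex1, the abasic site endonuclease, passed the adjusted test with a log2 fold change of -0.93 (34.0 and 32.2 FPKM in control, 16.4 and 17.5 FPKM in SUV-OE, limma adjusted p = 0.0434). Whether the repair genes differ from these lists was not tested.

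**Figure D4:**
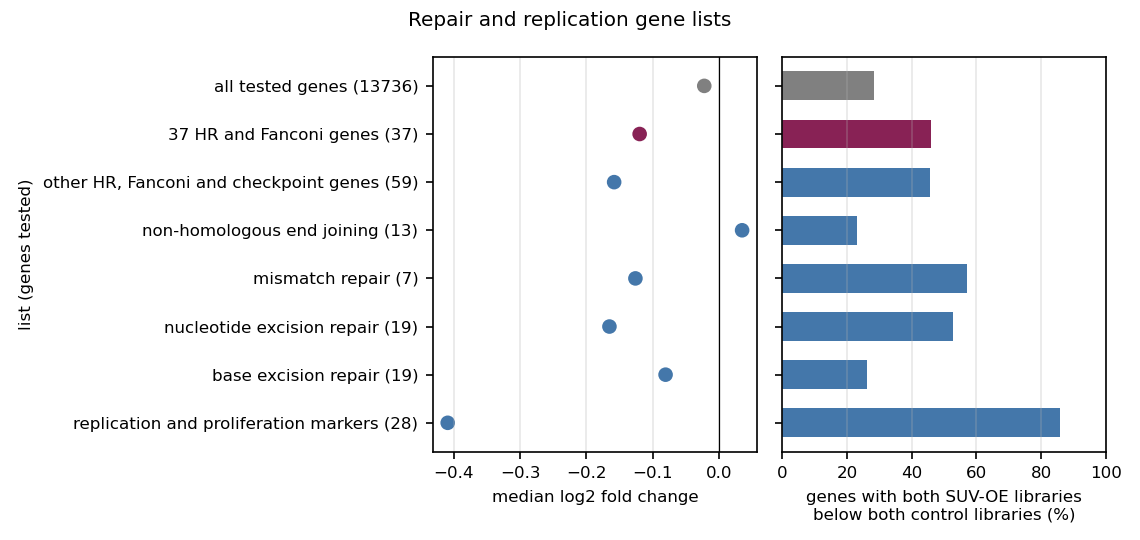
Left, median log2 fold change (x axis, SUV-OE minus control); right, percent of tested genes with both SUV-OE values under both control values (x axis, bars from 0), for all tested genes, the 37 repair genes and 6 other lists (y axis, genes tested in parentheses). Replication and proliferation markers stand lowest (median -0.41, 85.7% below), and non-homologous end joining is the one list with a median above 0 (0.03).

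As the plot of lists shows, markers of replication and proliferation had the lowest median, -0.41 over 28 tested genes, and 24 of the 28 lay below without overlap (85.7%, against 28.4% of all tested genes). Tk1, Ccne1 and Rrm2 had log2 fold changes of -0.78, -0.71 and -0.71, with limma adjusted p of 0.0576, 0.0692 and 0.112. No gene of that list passed the adjusted test, and 12 were lower at an unadjusted p under 0.05 by limma (against 10.4% of all tested genes). The median of these markers lay on the same side of 0 as that of the repair genes, and their part in the result was not tested.

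Markers of other cell types differed between the groups as well. All 8 late neutrophil markers lay above without overlap in SUV-OE (against 25.4% of all tested genes), and their summed FPKM was 744 and 2337 in control against 6568 and 7985 in SUV-OE. Of 8 tested B-lymphoid markers, 7 lay above, with sums of 18.6 and 27.7 in control against 36.5 and 81.3 in SUV-OE. For monocyte and macrophage markers 6 of 8 lay above, although their sums (388 and 678 in control, 367 and 411 in SUV-OE) did not separate the groups. Erythroid markers lay above for 4 of 9, with sums of 14.9 and 139 in control against 101 and 70.6 in SUV-OE. In the endothelial list 5 of 6 markers were under 1 FPKM in every library, and the sums (17.1 and 24.1 in control against 72.1 and 65.4 in SUV-OE) were carried by Pecam1, which myeloid cells and platelets also express. In the T and NK list 5 of 7 markers were under 1 FPKM in every library, with sums of 73.7 and 113 in control against 77.5 and 83.5 in SUV-OE. Of the 2 tested genes, Cd4 had 0.47 and 0.44 FPKM in control and 1.27 and 0.71 FPKM in SUV-OE. Almost all of each sum therefore came from 1 gene. No marker of these lists was at 0 in all 4 libraries. The c-Kit+ myeloid markers summed to 2816 and 2880 FPKM in control and to 2371 and 3012 FPKM in SUV-OE, and of these 8 genes 4 lay below and 2 lay above without overlap. Flt3, a receptor of early progenitors, had 10.3 and 9.08 FPKM in control and 6.2 and 4.18 FPKM in SUV-OE (log2 fold change -0.81, limma adjusted p = 0.133). Prtn3, a granule protease, had 771 and 880 FPKM in control and 565 and 728 FPKM in SUV-OE (log2 fold change -0.36, limma adjusted p = 0.474). Kit itself, the gene behind the enrichment, had 20.4 and 19.2 FPKM in control and 28.6 and 25.4 FPKM in SUV-OE (log2 fold change 0.43, limma adjusted p = 0.160). The part of the cell mixture in the values of the repair genes was not tested.

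**Figure D5:**
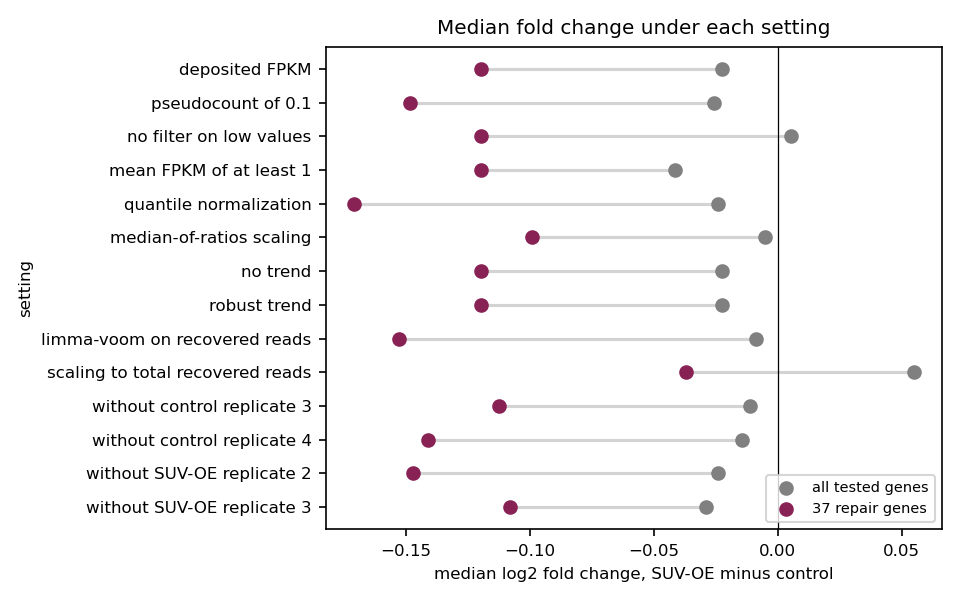
Median log2 fold change (x axis, SUV-OE minus control) of the 37 repair genes and of all tested genes under each processing setting (y axis). The median of the repair genes stayed below that of all tested genes in all 14 settings and was closest to 0 under scaling to total recovered reads (-0.04, with 0.05 for all tested genes).

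The plot of settings gives the size of the shift relative to the rest of the transcriptome. On the deposited FPKM the median of the 37 genes was lower than that of all tested genes by 0.10 on the log2 scale, a difference of -0.10. Scaling to total recovered reads, a setting added once the data had been seen, moved both medians up and left a difference of -0.09.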

How the data were processed

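RNA-Seq was performed on AML c-Kit+ cells in 2 control and 2 SUV-OE libraries (TruSeq RNA v2, paired-end reads). According to the study's methods the authors aligned reads to mm10 with TopHat2, computed FPKM with Cufflinks and called DEGs with DESeq2, and the submitters' processing notes name CASAVA 1.8. The table that the authors deposited holds 1 FPKM for every gene in every library. Annotation release and strand setting are not given in the sources used here.

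FPKM were compared with limma 3.58.1 (R 4.3.3) on log2(FPKM + 1), which understates the change of low genes. Genes averaging 0.5 FPKM or more (13736) were tested with group as the only term, a variance trend and Benjamini-Hochberg adjustment over all of them. DEGs followed the study's thresholds. At the GENCODE M21 exon length, 18498 genes were whole multiples of 1 step per library within 0.01, and 4873 were at another length. These recovered reads (28 repair genes at the annotated length, 9 at another) entered limma-voom for genes averaging 10 reads or more. They also entered the scaling to total recovered reads, the counting error, the depth figures and the simulated data. Recovered reads were 1.12 to 1.24 times the divisor of the FPKM.

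The repair genes, roles and other lists were written from general knowledge, with earlier results of these data known. All 37 genes are named. Values in every library are given for the 12 with the largest absolute fold change and for 12 central genes, and for up to 3 genes per other list. Some results are not reported here. Data for 13452 genes were simulated with a dispersion of 0.01. Of 200 genes seeded with a log2 change of 2, 87% were called, with 10 unchanged genes called. Changes as small as those of the repair genes were not simulated. Alternatives were pseudocount, filter, normalization, trend, threshold, limma-voom and leaving out each library. Motifs were counted in Python 3.11.15, and figures were drawn with matplotlib 3.10.9.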

Additional observations from a re-analysis of the deposited data

How the results depend on the processing

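No repair gene was a DEG under any alternative run, those leaving out a library included. The number of DEGs over all genes was 342 at an adjusted p under 0.1, 676 by limma-voom and 0 (4177 genes at an unadjusted p under 0.05) by limma without a filter on low values, and 0 to 0 when leaving out a library. The median log2 fold change of the 37 genes was -0.15 with a pseudocount of 0.1, -0.17 under quantile normalization, -0.15 by limma-voom, -0.037 under scaling to total recovered reads (added once the data had been seen), and -0.15 to -0.11 when leaving out a library. The number with both SUV-OE libraries below both controls was 20 to 27 when leaving out a library, against 36.8% to 43.5% of all tested genes, where 1 library alone stands for a group and is assumed to vary like the other group. Of 481 single-gene values under alternatives, 32 changed sign, in 15 genes, all with an absolute log2 fold change of at most 0.15, and the cause was not tested. Median-of-ratios scaling gave 0.011 for Fancm and 0.016 for Rad51d. Quantile normalization gave -0.093 for Atr, -0.069 for Palb2 and 0.00407 for Rad51d. Scaling to total recovered reads gave 0.023 for Atm, 0.049 for Brca1, 0.00770 for Chek2, 0.045 for Fancb, 0.00466 for Fancd2, 0.074 for Fancm, 0.015 for Rad51c, 0.083 for Rad51d and 0.00960 for Rad54b. Without a change of sign, it gave -0.0086 for Brca2, -0.021 for Brip1, -0.0036 for Fance, -0.037 for Fancc, -0.051 for Fancl, -0.073 for Fancf, -0.027 for Rad50, -0.10 for Fanca, -0.12 for Slx4, -0.077 for Rad51b, -0.090 for Xrcc3, 0.15 for Bard1, 0.12 for Fancg, 0.084 for Atr and 0.098 for Palb2. Quantile normalization, also without a change of sign, gave -0.17 for Brca2, -0.18 for Brip1, -0.061 for Brca1, -0.033 for Chek2, -0.10 for Fancb, -0.23 for Fancc, -0.21 for Fancl, -0.062 for Fancm, 0.067 for Fancg, -0.022 for Rad50, -0.25 for Rad51b, -0.15 for Rad51c, 0.032 for Rad52, -0.15 for Rad54b and -0.18 for Topbp1. By limma-voom Fancc was at -0.15 and Rad52 at 0.21, and with a pseudocount of 0.1 Fancc was at -0.15. Leaving out a library gave ranges of -0.17 to 0.041 for Atm, -0.073 to 0.10 for Atr, -0.061 to 0.20 for Bard1, -0.25 to 0.085 for Chek2, -0.28 to 0.21 for Fancb, -0.21 to 0.048 for Fancd2, -0.23 to 0.057 for Fance, -0.012 to 0.066 for Fancg, -0.089 to 0.075 for Fancm, -0.067 to 0.11 for Palb2, -0.42 to 0.12 for Rad51b, -0.26 to 0.16 for Rad51c and -0.092 to 0.086 for Rad51d. Without a change of sign, it gave -0.18 to -0.024 for Brip1, -0.15 to -0.021 for Brca2, 0.080 to 0.20 for Rad52 and -0.093 to -0.038 for Rad54b. No paired analysis was possible because control and SUV-OE have 1 replicate number in common. With 2 libraries in each group, differences of the size seen here could not be separated from the spread between libraries at the adjusted threshold.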
